A study of Mus musculus with 2 samples.

Results

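The genes described are the 8 protein arginine methyltransferases Prmt1, Prmt2, Prmt3, Carm1, Prmt5, Prmt6, Prmt7 and Prmt9, found by symbol among the 31053 genes listed in the count matrices of mouse embryonic hearts. They were followed across 6 cell types, each picked out by sums of marker genes: cardiomyocytes, epicardial cells, mesenchymal cells, endothelial cells, macrophages and red cells. Hearts were taken at stage E12.5, counted in days of embryonic development, and dissociated with TrypLE, and droplet libraries of single cells were made, 1 per genotype. The control embryos carried Tbx18-Cre and a YFP allele (Tbx18-Cre; YFP/+). The mutant embryos (Tbx18-Cre; Prmt1 fl/fl;YFP/+) had the same Cre driver and YFP allele and were homozygous for a floxed Prmt1 allele, so Cre and YFP were common to both libraries. A UMI, or unique molecular identifier, marks 1 captured RNA molecule, and levels are the summed UMIs of a gene per 1000000 UMIs of the cells of that type (CPM). Cre was driven from Tbx18, a gene of the embryonic epicardium, and here Tbx18 stood at 112 CPM in control epicardial cells and 90.1 in mutant ones, against at most 8.77 in any other type. With 1 library per genotype there was no test between genotypes, and no p-value is given. The intervals are 95% intervals, exact Poisson for levels, exact conditional binomial for ratios and exact binomial (Clopper-Pearson) for shares of cells; they cover only the error of counting and none of the variation among embryos, and were not adjusted for the number of values.

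Protein arginine methyltransferases move methyl groups from S-adenosylmethionine to the guanidine group of arginine, often within glycine- and arginine-rich stretches of RNA-binding proteins and on histone tails. Type I enzymes (PRMT1, PRMT2, PRMT3, CARM1 and PRMT6) make asymmetric dimethylarginine, type II enzymes (PRMT5 and PRMT9) make symmetric dimethylarginine, and the type III enzyme PRMT7 stops at monomethylarginine. PRMT1 is known as the main source of asymmetric dimethylarginine in mammalian cells, and loss of Prmt1 from the whole mouse embryo is lethal early in development.

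The control library held 49323576 UMIs and the mutant library 48527471. Of the cells kept, 4100 control and 4640 mutant, the marker gates assigned 3449 and 3863 to a type. They comprised 2026 control and 1573 mutant cardiomyocytes, 235 and 411 epicardial cells, 748 and 1234 mesenchymal cells, 204 and 272 endothelial cells, 72 and 72 macrophages, and 164 and 301 red cells. Depth set the precision: cardiomyocytes supplied 31495072 control and 27004970 mutant UMIs, while macrophages supplied 251617 and 364931. The gates used sums of these same markers, so the ranking of markers over types is no separate check of the cell types. Every marker was highest in its own type in both libraries for 5 of the 6 types. Among mesenchymal markers only 9 of 14 were, because Col1a1, Col1a2, Col3a1, Dcn and Fbln2 were higher in epicardial cells, and the median epicardial cell had 29.7 (control) and 28.6 (mutant) mesenchymal marker UMIs per 10000. The libraries shared 8 cell barcodes, 5 of them among gated cells.

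The upstream sequences of Prmt1 and Prmt3 are shown. Prmt1 was the most abundant member, and Prmt3 the member that differed by more than 1.5-fold between the libraries in cardiomyocytes. Each is the 250 bases before the RefSeq start site, 5′ to 3′ on the strand of the gene, with CpG dinucleotides in capitals. On build GRCm38.p6 they lie at chr7:44986421-44986670 on the minus strand (Prmt1) and chr7:49778108-49778357 on the plus strand (Prmt3). In GENCODE M21 Prmt1 reaches 44986568 and Prmt3 begins at 49778346, so part of each window lies inside the GENCODE gene.
Prmt1: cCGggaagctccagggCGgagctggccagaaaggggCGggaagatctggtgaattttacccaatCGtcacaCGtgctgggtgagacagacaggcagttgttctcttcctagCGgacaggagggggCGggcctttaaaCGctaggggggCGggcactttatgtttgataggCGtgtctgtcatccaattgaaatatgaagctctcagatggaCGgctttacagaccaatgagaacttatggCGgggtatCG
Prmt3: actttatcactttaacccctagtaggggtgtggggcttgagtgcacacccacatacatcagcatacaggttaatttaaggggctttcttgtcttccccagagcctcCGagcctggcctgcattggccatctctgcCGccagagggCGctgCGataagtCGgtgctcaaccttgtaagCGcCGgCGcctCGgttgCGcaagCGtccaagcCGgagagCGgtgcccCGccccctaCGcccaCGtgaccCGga
The Prmt1 sequence held 13 CpGs and the Prmt3 sequence 17, against a median of 6 over the 32851 RefSeq promoters of the same length. Of those promoters 68.5% had fewer CpGs than Prmt1 and 76.5% fewer than Prmt3, so neither count was unusual. GGGCGG or its reverse complement, the GC box, occurred 4 times upstream of Prmt1 and 1 time upstream of Prmt3, and was present in 32.7% of all promoters. CCAAT, searched on both strands, occurred 3 times upstream of Prmt1 and 1 time upstream of Prmt3, and was present in 33.8% of all. The E-box CACGTG occurred 1 time in each and in 6.02% of all. TATAAA was in neither and in 12.4% of all. RefSeq sequences were matched for 7 of the 8 members, and the other five had between 13 (Prmt5, Prmt6) and 35 (Prmt7) CpGs in this window. These matches describe the letters only, and the count data do not bear on them.

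Prmt1, the floxed gene, is described first. In GENCODE M21 (GRCm38) it lies on chromosome 7 from 44975989 to 44986568 on the minus strand. Which exons are flanked by loxP sites is not given in the sources used here, and a UMI marks the 3′ end of a transcript. A transcript that lacks the deleted exons but keeps its 3′ end would still be counted, so the levels below do not check the loss of Prmt1. Prmt1 was measured at 624 CPM in control and 740 CPM in mutant cardiomyocytes (19651 and 19986 UMIs). Epicardial cells had 473 CPM in the control and 400 CPM in the mutant library (423 and 630 UMIs). Mesenchymal cells had 654 and 719 CPM (1268 and 2496 UMIs), and endothelial cells 593 and 674 CPM (654 and 1024 UMIs). Of these 4 types the epicardial level was the lowest in both libraries. Its ratio to the cardiomyocyte level was 0.76 (0.69 to 0.83) in the control and 0.54 (0.50 to 0.58) in the mutant library.

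Macrophages had 187 CPM of Prmt1 in the control and 310 CPM in the mutant library, from 47 and 113 UMIs. Red cells had 19.1 and 25.1 CPM, from 43 and 83 UMIs. In the control, the order from high to low was mesenchymal, cardiomyocyte, endothelial, epicardial, macrophage and red cell. In the mutant library cardiomyocytes came before mesenchymal cells and the rest of the order was the same. Neighbours among the top 3 types did not differ beyond counting error. The control ratio of mesenchymal cells to cardiomyocytes was 1.05 (interval 0.990 to 1.11) and that of cardiomyocytes to endothelial cells 1.05 (0.973 to 1.14). Endothelial cells were, however, below the highest type in each library. Their ratio to mesenchymal cells was 0.906 (0.824 to 0.997) in the control. Their ratio to cardiomyocytes was 0.911 (0.855 to 0.970) in the mutant library. Endothelial cells exceeded epicardial cells 1.25-fold in the control (1.11 to 1.42) and 1.69-fold in the mutant library (1.53 to 1.87). Epicardial cells exceeded macrophages 2.53-fold in the control (1.87 to 3.50) and 1.29-fold in the mutant library (1.06 to 1.59).

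The highest level of Prmt1 was 34.3-fold the lowest in the control and 29.5-fold in the mutant library, and the lowest was the red cell in each. A spread of at least 2-fold over the 6 types in both libraries was common, at 94.9% of 6217 measured genes, and 76.5% of genes were lowest in red cells in both. Haemoglobin genes made up 81.3% of control and 75.7% of mutant red-cell UMIs. With mitochondrial, ribosomal and haemoglobin genes left out of the total, red cells had 134 and 137 CPM of Prmt1, and the spread became 6.24-fold and 6.75-fold. Without red cells the spread was 3.50-fold in the control and 2.39-fold in the mutant library, where 47.3% of genes spread at least 2-fold. Among cardiomyocytes, epicardial, mesenchymal and endothelial cells it was 1.38-fold and 1.85-fold, where 31.9% of genes spread at least 2-fold. In those 4 types Prmt1 was thus among the genes with less than a 2-fold spread.

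Free RNA in the droplets was measured in the control alone, whose matrix was unfiltered, from barcodes of 10 to 100 UMIs. Prmt1 made up 383 CPM of it (289 UMIs). Per 1000 UMIs of cardiomyocyte markers there were 115 Prmt1 UMIs in control red cells and 14.1 in free RNA. The median macrophage had 1.41 cardiomyocyte marker UMIs per 10000 in the control and 0 in the mutant library, against 409 and 405 in cardiomyocytes.

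**Figure D1:**
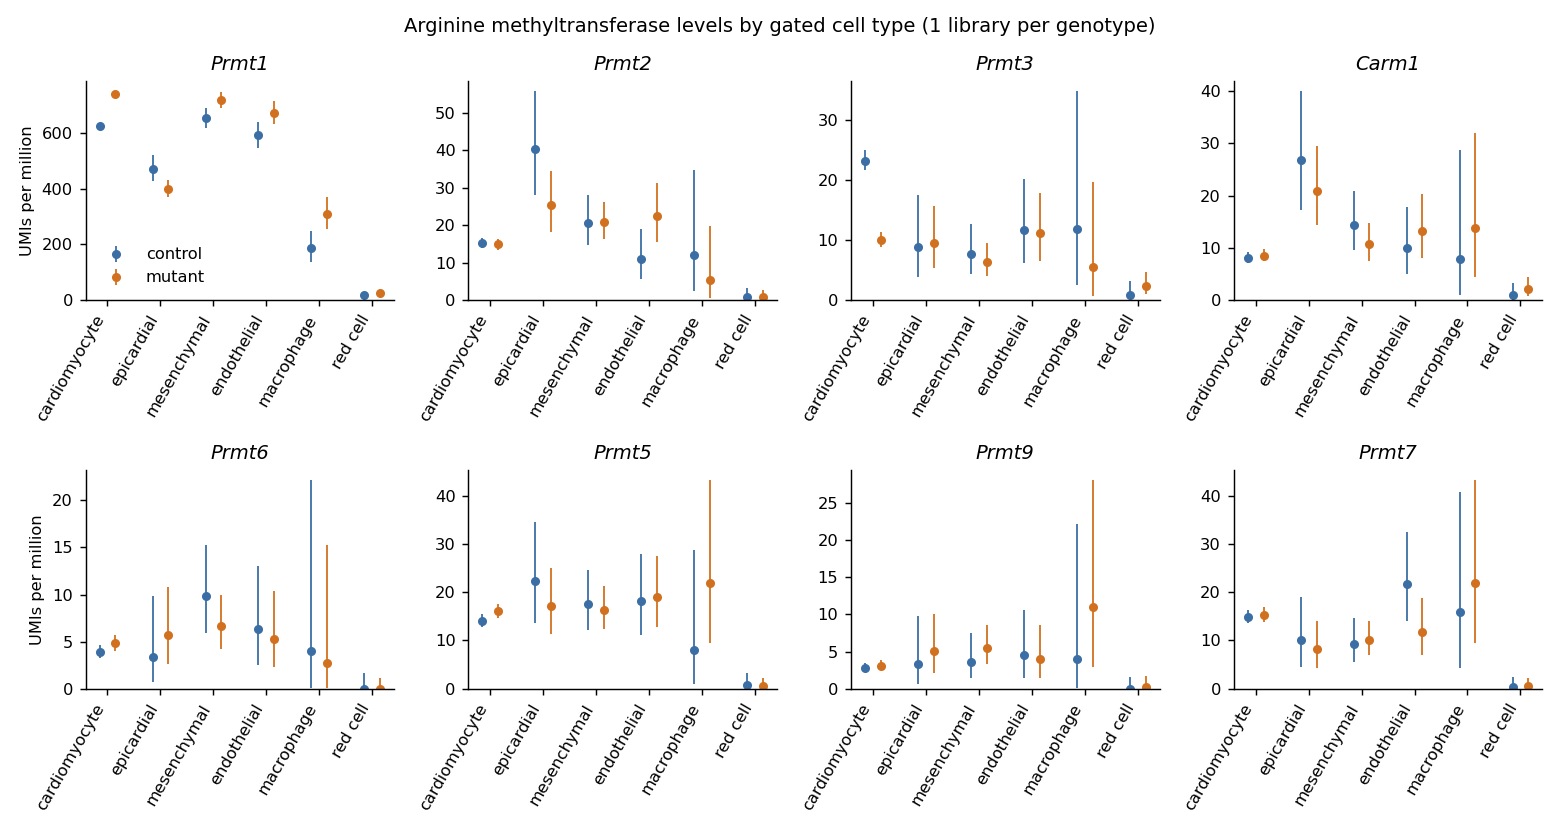
Levels of the 8 members, in CPM on linear axes that differ between panels, in each gated cell type (horizontal axis) of the control (blue) and mutant (orange) library; points are summed levels and bars exact 95% Poisson intervals. Prmt1 reached 740 CPM, whereas no other member exceeded 40.2 CPM, and Prmt3 in cardiomyocytes stood at 23.3 CPM in the control and 10.0 CPM in the mutant library.

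Prmt1 was the highest member at all 12 points of 6 types and 2 libraries. Since each UMI stands for 1 molecule whatever the length of the transcript, levels were compared between members without a length correction. Prmt1 supplied 88.3% of all UMIs of the 8 genes in control cardiomyocytes and 91.0% in mutant ones. Its share was lowest in control macrophages, at 74.6% of 63 UMIs, and was 80.4% and 81.3% in epicardial cells. The family as a whole reached 706 and 813 CPM in cardiomyocytes and 588 and 492 CPM in epicardial cells.

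The share of cells with a Prmt1 UMI was compared after each cell was thinned to 2000 UMIs and shallower cells were left out. It was 71.0% of 1991 control and 75.4% of 1546 mutant cardiomyocytes. Mesenchymal cells had 74.3% of 342 and 75.4% of 739, and endothelial cells 66.7% of 141 and 72.8% of 232. Epicardial cells had 62.4% of 157 in the control (54.3% to 70.0%) and 56.4% of 353 in the mutant library (51.0% to 61.6%), so their intervals overlapped. Macrophages had 35.7% of 56 and 40.3% of 67. Red cells, the type with the lowest Prmt1 level, had 9.26% of 162 and 9.67% of 300. This red-cell share was not used as a measure of the free-RNA background. In the control, Prmt1 UMIs per 1000 cardiomyocyte marker UMIs were 115 in red cells and 14.1 in free RNA. The part of free RNA in the red-cell shares was not tested, and free RNA of the mutant library was not analysed here. Without thinning the shares were 95.8% and 97.4% in cardiomyocytes, 68.5% and 69.8% in epicardial cells, 73.0% and 79.5% in mesenchymal cells, 77.9% and 88.2% in endothelial cells, 44.4% and 66.7% in macrophages, and 15.9% and 16.9% in red cells. The median depths behind the unthinned shares ran from 1902 UMIs in control mesenchymal cells to 14039 in control red cells.

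**Figure D2:**
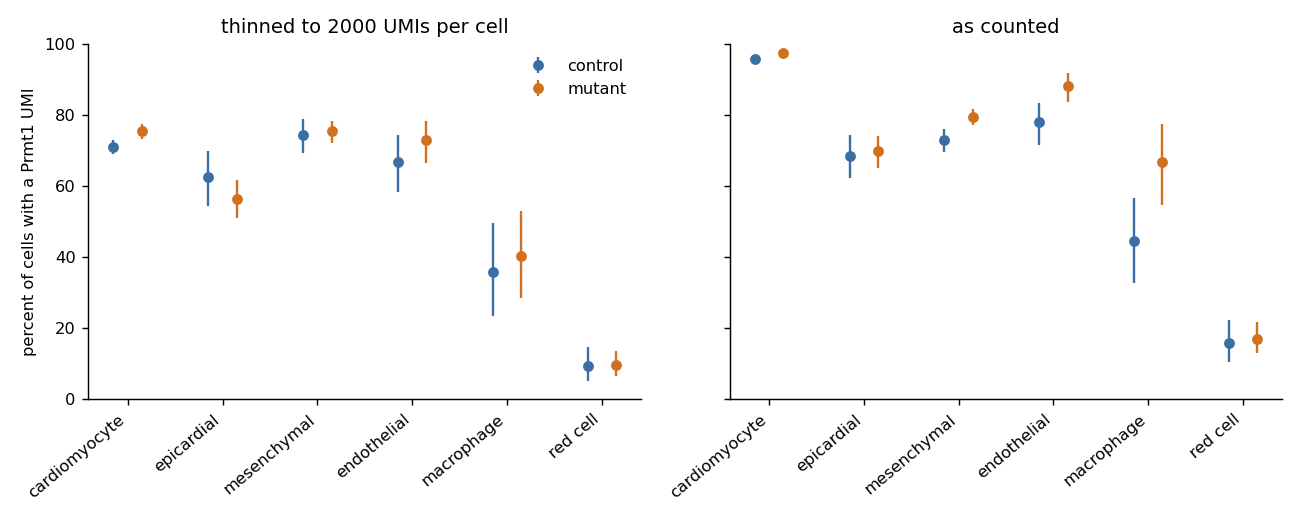
Percent of cells with at least 1 Prmt1 UMI in each gated cell type (horizontal axis), after thinning every cell to 2000 UMIs (left) and as counted (right); points are the control (blue) and mutant (orange) library and bars exact 95% binomial intervals. After thinning, cardiomyocytes stood at 71.0% and 75.4% and red cells at 9.26% and 9.67%.

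Between the libraries, Prmt1 was higher in the mutant in cardiomyocytes, mesenchymal cells, endothelial cells and macrophages and lower in epicardial cells. The mutant level was 119% of the control in cardiomyocytes (116% to 121%), 110% in mesenchymal cells (103% to 118%) and 114% in endothelial cells (103% to 126%). In epicardial cells it was 84.5% (74.6% to 95.8%). In macrophages it was 166% (117% to 238%) and in red cells 131% (89.8% to 194%). The median epicardial marker level of gated epicardial cells was 24.9 per 10000 UMIs in the control and 20.6 in the mutant library. Of these cells, 19 of 235 control and 56 of 411 mutant ones were under 1.5 times the gate minimum. The part of this shift in the epicardial value was not tested. In gated macrophages 11 of the 12 macrophage markers were lower in the mutant library, their summed level was 22304 CPM in the control and 15313 CPM in the mutant, and none was at 0. The median megakaryocyte marker level in these cells was 15.0 per 10000 UMIs in the control and 4.56 in the mutant library. The part of these shifts in the macrophage value was not tested. The macrophage value came beside a background in which 30.6% of 5954 genes differed by more than 1.5-fold, on the scale log2((mutant CPM + 10)/(control CPM + 10)) used for all such counts. The same share was 19.9% of 1858 genes in red cells.

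Prmt1 was also compared within cell types, and differences between the splits in the mutant-to-control ratio were not tested. Cardiomyocytes were split at 10 UMIs per 10000 of Myl2, which encodes the regulatory light chain of ventricular muscle. Prmt1 was 655 CPM in Myl2-high and 533 CPM in Myl2-low control cells, a ratio of 1.23 (1.19 to 1.27), and 781 and 607 CPM in mutant cells, a ratio of 1.29 (1.24 to 1.33). The mutant level was 119% of the control in Myl2-high cells and 114% (109% to 119%) in Myl2-low cells. Cells were also split by the summed level of 16 mitosis genes, at 10 UMIs per 10000. Control cardiomyocytes high and low in them had 626 and 622 CPM, a ratio within counting error (1.01, 0.979 to 1.04). The control ratio was 0.78 (0.62 to 0.96) in epicardial, 1.09 (0.97 to 1.22) in mesenchymal and 1.19 (1.02 to 1.40) in endothelial cells. In the mutant library these ratios were 1.04 (0.86 to 1.25), 0.93 (0.86 to 1.01) and 0.98 (0.87 to 1.11). Among epicardial cells low in mitosis genes Prmt1 was 511 CPM in the control and 396 CPM in the mutant library, or 77.6% (67.1% to 89.9%). Among the 51 control and 73 mutant epicardial cells high in them it was 397 and 410 CPM, or 103% (80.8% to 133%), so the intervals of the epicardial splits overlapped. Mesenchymal cells with a UMI of Tcf21, a transcription factor of cardiac fibroblast precursors, had 652 CPM in the control and 689 CPM in the mutant library (106%, 97.1% to 115%). Those without a Tcf21 UMI had 658 and 799 CPM (121%, 108% to 136%), with an interval that overlapped that of the cells with one.

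**Figure D3:**
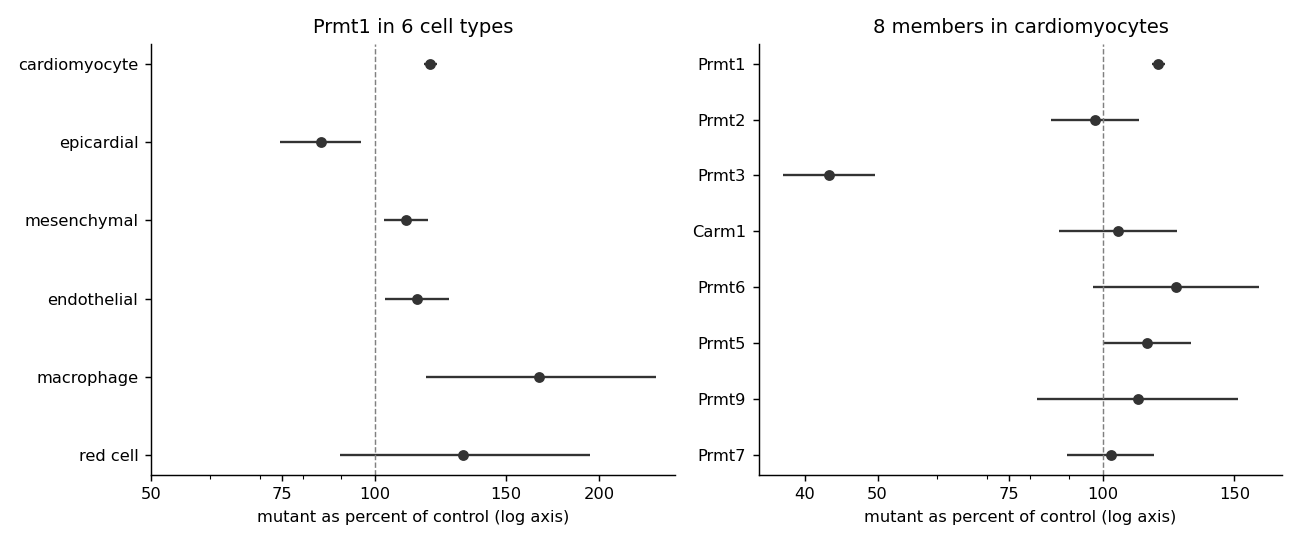
Mutant level as percent of the control level, on log axes, for Prmt1 in 6 cell types (left) and for the 8 members in cardiomyocytes (right); points are ratios of CPM, bars exact 95% intervals of counting error, and the dashed line marks 100%. Prmt1 lay below the line in epicardial cells (84.5%), and Prmt3 in cardiomyocytes was the farthest from it of the 8 members (43.1%).

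In cardiomyocytes, 5 of the 8 members averaged at least 10 CPM over both libraries, and 1 of the 5, Prmt3, differed by more than 1.5-fold, where 0.655% of 5341 genes did (0.356% lower and 0.3% higher in the mutant library). PRMT3 is a cytosolic type I enzyme whose known substrate is the small ribosomal subunit protein RPS2. Prmt3 stood at 23.3 CPM in control cardiomyocytes and 10.0 CPM in mutant ones, from 734 and 271 UMIs. The mutant level was 43.1% of the control (37.3% to 49.6%), a difference of -0.73 on the log2 scale. Of cardiomyocytes as counted, 24.9% of control and 14.6% of mutant cells had a Prmt3 UMI, and after thinning 3.67% and 2.33% did. In red cells, 1.22% and 1.33% of cells had one as counted, and 0 of 162 control cells (which allows a share of up to 1.85%) and 0.667% of mutant cells after thinning. Free RNA of the control held 34.5 CPM of Prmt3 from 26 UMIs (22.5 to 50.5). This is a share of free RNA and not the amount that free RNA adds to a cell. Control red cells had 0.888 CPM (0.107 to 3.21) from 2 UMIs, too few to measure that amount for Prmt3. The part of free RNA in the cardiomyocyte difference was not tested, and free RNA of the mutant library was not analysed here.

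In the other types the counts of Prmt3 were too few to show whether it differed between libraries. Epicardial cells had 8.94 and 9.52 CPM (8 and 15 UMIs), mesenchymal cells 7.74 and 6.34 CPM (15 and 22 UMIs) and endothelial cells 11.8 and 11.2 CPM (13 and 17 UMIs). The intervals of their ratios held 100% and, in epicardial and mesenchymal cells, also the cardiomyocyte value of 43.1%: 106% (42.4% to 290%) in epicardial cells, 81.9% (40.6% to 170%) in mesenchymal cells and 94.9% (43.4% to 213%) in endothelial cells. Macrophages had 3 and 2 Prmt3 UMIs (46.0%, 3.84% to 401%) and red cells 2 and 8 (272%, 54.3% to 2631%). In the control, cardiomyocytes exceeded mesenchymal cells 3.01-fold (at least 1.81 by the interval), and in the mutant library 1.58-fold (at least 1.03). The cardiomyocyte level in the mutant library thus fell among those of the other types, while in the control it was the highest. The control level was within counting error of that of macrophages, the next in order (ratio 1.95, 0.67 to 9.50).

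Prmt3 was lower in the mutant library in the Myl2 and mitosis subsets of cardiomyocytes and in those of at least 5000 UMIs, and in shallower cells the interval included 100%. Myl2-high cells had 19.0 CPM in the control and 9.91 CPM in the mutant library, or 52.2% (44.0% to 61.7%). Myl2-low cells had 36.1 and 10.4 CPM, or 28.9% (21.8% to 37.9%). In the control Prmt3 was thus lower in Myl2-high than in Myl2-low cells, with a ratio of 0.53 (0.45 to 0.61), whereas the mutant ratio was 0.95 (0.72 to 1.27). Cells high in mitosis genes had 44.2% of the control level and cells low in them 41.7%. By depth, the mutant level was 67.5% of the control in cells under 5000 UMIs (16.03% to 218%, from 13 and 4 Prmt3 UMIs). It was 55.2% in cells from 5000 UMIs (36.7% to 81.8%), 36.6% from 10000 (27.0% to 49.1%) and 42.5% from 20000 UMIs upwards (35.4% to 50.9%).

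Prmt3 lies on chromosome 7 from 49778346 to 49858265 on the plus strand, 4.79 megabases from Prmt1. It overlaps the gene models Gm44822 on the same strand and Gm26856 on the other, and reads in the overlap may not be separable. Within 10 megabases of Prmt1, 3 of 54 genes measured in cardiomyocytes (5.56%) differed by more than 1.5-fold, namely Prmt3, Bcl2l12 and Pop4, beside 0.655% of all genes. Within 20 megabases it was the same 3 of 124 (2.42%), within 5 megabases 2 of 46 (4.35%) and within 1 megabase 1 of 37 (2.7%). Prmt3, already known to be past 1.5-fold, was counted in each window from 5 megabases up. Within 10 megabases in the other types, the share past 1.5-fold was 8.77% in epicardial cells (7.45% of all genes), 5.26% in mesenchymal cells (2.24%) and 10.9% in endothelial cells (6.34%). Within 20 megabases it was 8.45%, 2.88% and 7.35% in the same order, nearer the shares of all genes. Bcl2l12, chosen after its values were seen, lies 4654 bases from Prmt1 and encodes a BCL2-related protein. It had 45.9 CPM in control and 21.1 CPM in mutant cardiomyocytes (46.0%, 41.7% to 50.7%), 132 and 57.6 CPM in mesenchymal cells, 73.8 and 45.0 CPM in epicardial cells and 70.7 and 29.6 CPM in endothelial cells. Pop4, a subunit of RNase P and RNase MRP, lies 6.70 megabases from Prmt1 and was also chosen after its values were seen. It had 61.1 and 23.4 CPM in cardiomyocytes (38.4%, 35.0% to 42.0%), 93.9 and 46.9 CPM in mesenchymal cells and 70.4 and 29.2 CPM in epicardial cells. Both genes were thus lower in the mutant library in each of these types, while Prmt3 was lower past 1.5-fold in cardiomyocytes and averaged under 12 CPM in the other three, where its intervals were wide. Whether the cell types differed in this was not tested.

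Prmt2, a type I enzyme known as a coactivator of nuclear receptors, was highest in epicardial cells in both libraries, at 40.2 CPM in the control and 25.4 CPM in the mutant (36 and 40 UMIs; 63.1%, 39.2% to 102%). Control epicardial cells exceeded control cardiomyocytes 2.65-fold (at least 1.83 by the interval), and mutant ones 1.71-fold (at least 1.20). In the mutant library the epicardial level of Prmt2 was within counting error of the endothelial (ratio 1.13, 0.70 to 1.85) and mesenchymal levels (1.22, 0.81 to 1.83). Cardiomyocytes had 15.2 and 14.8 CPM (479 and 401 UMIs) and mesenchymal cells 20.6 and 20.7 CPM (40 and 72 UMIs), so neither differed between libraries beyond counting error. Endothelial cells had 10.9 and 22.4 CPM from 12 and 34 UMIs, or 206% (104% to 436%). This was the 1 of 6 endothelial members of at least 10 CPM past 1.5-fold, beside 6.34% of 6352 genes (4.83% higher and 1.51% lower). Macrophages had 3 and 2 Prmt2 UMIs and red cells 2 and 3. Within cardiomyocytes Prmt2 was lower in Myl2-high than in Myl2-low cells in both libraries, at 12.6 against 23.1 CPM in the control (ratio 0.54, 0.45 to 0.66) and 12.6 against 22.1 CPM in the mutant (0.57, 0.46 to 0.70).

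Carm1, also called PRMT4, methylates histone H3 and acts as a transcriptional coactivator. It was also highest in epicardial cells, at 26.8 CPM in the control and 20.9 CPM in the mutant library (24 and 33 UMIs). Epicardial cells exceeded cardiomyocytes, which had 8.13 and 8.52 CPM (256 and 230 UMIs), 3.30-fold in the control (at least 2.08 by the interval) and 2.46-fold in the mutant library (at least 1.65). In the mutant library the epicardial level of Carm1 was within counting error of that of macrophages, the next in order (ratio 1.53, 0.59 to 5.01). Mesenchymal cells had 14.4 and 10.7 CPM (28 and 37 UMIs) and endothelial cells 9.97 and 13.2 CPM (11 and 20 UMIs). Macrophages had 2 and 5 UMIs of Carm1 and red cells 2 and 7. The intervals of the ratio between libraries included 100% in all 6 types.

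**Figure D4:**
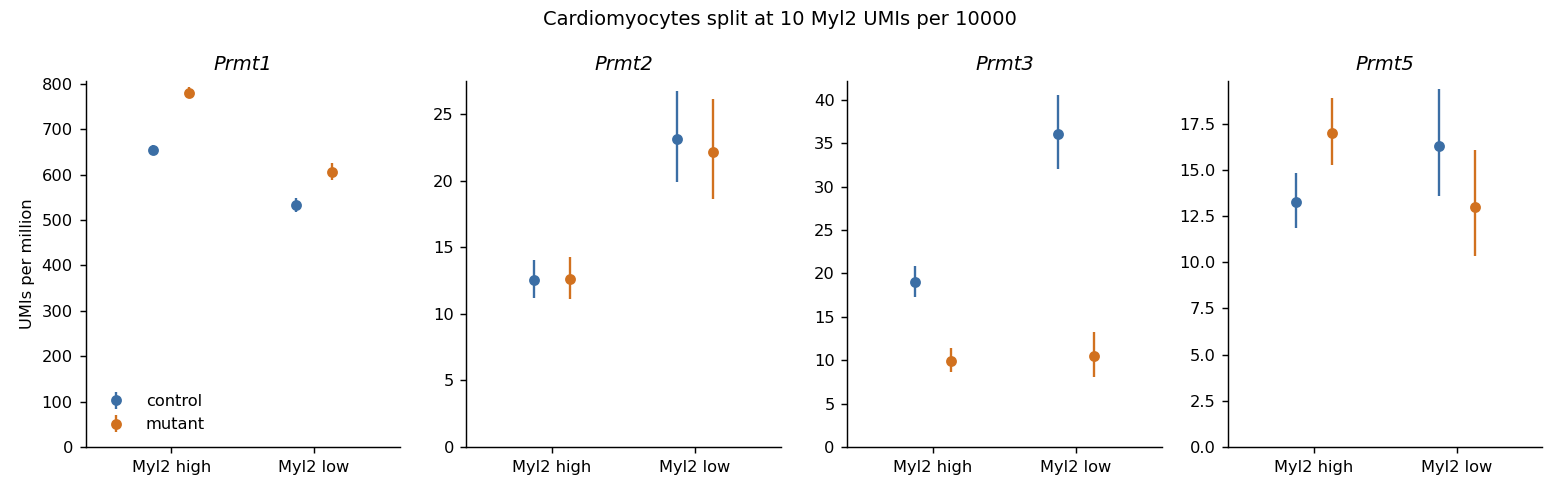
Levels of Prmt1, Prmt2, Prmt3 and Prmt5, in CPM on linear axes that differ between panels, in cardiomyocytes with at least (Myl2 high) or under (Myl2 low) 10 Myl2 UMIs per 10000, in the control (blue) and mutant (orange) library; bars are exact 95% Poisson intervals. Prmt3 was 36.1 CPM in Myl2-low control cells and 10.4 CPM in Myl2-low mutant cells, while Prmt2 was 23.1 and 22.1 CPM.

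Prmt6, a nuclear type I enzyme known to methylate histone H3, was among the least abundant members. It had 3.87 and 4.85 CPM in cardiomyocytes (122 and 131 UMIs; 125%, 97.1% to 162%) and 9.80 and 6.62 CPM in mesenchymal cells (19 and 23 UMIs). Epicardial cells had 3 and 9 UMIs, endothelial cells 7 and 8, and macrophages 1 and 1. No Prmt6 UMI was found in red cells of either library, where 3 UMIs would have been 1.33 CPM in the control and 0.906 CPM in the mutant. In control cardiomyocytes Prmt6 was lower in cells high in mitosis genes (3.02 against 4.94 CPM; ratio 0.61, 0.42 to 0.89), and in mutant cells the ratio was 0.77 (0.54 to 1.11).

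Prmt5, the main type II enzyme, works in a complex with WDR77 and methylates Sm proteins and histones. It stood at 14.0 and 16.1 CPM in cardiomyocytes (442 and 434 UMIs), or 115% (100.1% to 131%). Epicardial cells had 22.4 and 17.1 CPM (20 and 27 UMIs), mesenchymal cells 17.5 and 16.4 CPM (34 and 57 UMIs) and endothelial cells 18.1 and 19.1 CPM (20 and 29 UMIs). Among these 4 types the highest level was 1.59-fold the lowest in the control and 1.19-fold in the mutant library. Macrophages had 2 and 8 Prmt5 UMIs, past 1.5-fold but with an interval from 55.0% to 2666%, and red cells 2 and 2. Cardiomyocytes high in mitosis genes had 15.5 CPM against 12.2 CPM in the others in the control (ratio 1.27, 1.05 to 1.55), and 17.9 against 14.0 CPM in the mutant library (1.28, 1.05 to 1.55). In Myl2-high cells the mutant level was 128% of the control (110% to 150%), whereas in Myl2-low cells it was 79.6% (59.6% to 106%), so the direction depended on the cells chosen and the difference between them was not tested.

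Prmt9, the other type II enzyme, known to methylate the splicing factor SF3B2, had 2.79 and 3.11 CPM in cardiomyocytes (88 and 84 UMIs). Mesenchymal cells had 7 and 19 UMIs, epicardial cells 3 and 8, endothelial cells 5 and 6, and macrophages 1 and 4. Red cells had 0 UMIs in the control and 1 in the mutant library. At these counts no difference between libraries was detectable.

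Prmt7, the type III enzyme, had 15.0 and 15.3 CPM in cardiomyocytes (471 and 414 UMIs; 103%, 89.6% to 117%). Endothelial cells had 21.8 and 11.8 CPM (24 and 18 UMIs; 54.5%, 27.8% to 105%). Epicardial cells had 10.1 and 8.25 CPM (9 and 13 UMIs) and mesenchymal cells 9.29 and 10.1 CPM (18 and 35 UMIs). Macrophages had 4 and 8 Prmt7 UMIs and red cells 1 and 2. The endothelial cells of the control had the highest level, but the difference from the next type, macrophages, was within counting error.

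In the remaining counts, 0 of 4 members of at least 10 CPM were past 1.5-fold in epicardial cells, where 7.45% of 6816 genes were (5.43% lower and 2.02% higher). In mesenchymal cells it was also 0 of 4, where 2.24% of 6555 genes were (1.28% lower and 0.961% higher). In macrophages 2 of 4 were, Prmt1 and Prmt5, beside 30.6% of genes (16.2% higher and 14.4% lower), and in red cells 0 of 1 was, beside 19.9% (19.4% higher and 0.538% lower). The macrophage and red-cell shares of all genes were so high that these counts are no result about the members.

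The genes whose levels most resembled Prmt1 were found by Pearson's correlation of log2(CPM + 10) over the 12 points, among 2023 genes that averaged at least 50 CPM. They were Sdhaf1 (r = 0.993), an assembly factor of succinate dehydrogenase, Ppa1 (0.992), an inorganic pyrophosphatase, Mphosph8 (0.992), a reader of histone H3 methylation, Stip1 (0.991), a co-chaperone of HSP70 and HSP90, and Dnlz (0.990), a mitochondrial zinc-finger protein. The 12 points share 2 libraries and the low red-cell levels, and the median candidate had r = 0.869. Without red cells the median fell to 0.177 over 10 points, and the same genes gave 0.949, 0.975, 0.939, 0.925 and 0.914. Their ranks were then 3, 1, 5, 8 and 13. They had been chosen over 12 points that include these 10, so the values without red cells are no separate support. Of the members, Prmt5 was most like Prmt1 over 12 points (0.923) and Prmt9 least (0.605). Without red cells Prmt6 was the most alike (0.498), Prmt5 gave 0.443, Prmt2 0.322 and Prmt3 0.10, and Carm1 (-0.05), Prmt7 (-0.27) and Prmt9 (-0.38) were negative, so the order among members depended on red cells.

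The other genes of arginine methylation were followed as a list of 59. It covered partners of PRMT1, the PRMT5 complex, readers of methylarginine, the methyl donor cycle and removal of methylarginine. Other methyltransferases or genes named with the family, and RNA-binding substrates, were also in it. In cardiomyocytes 0 of 48 measured genes were past 1.5-fold in either direction, beside 0.655% of all genes, and the median log2 ratio was 0.06 against 0.02 over all genes. In mesenchymal cells 0 of 50 were, with a median of -0.02 against -0.01. In epicardial cells 0 of 50 were higher and 2 lower, beside 2.02% and 5.43% of all genes, so the share was near the background. The median was -0.05 against -0.05 over all genes. The lower ones were Btg2, an antiproliferative binding partner of PRMT1 (68.2 and 34.3 CPM), and Riok1, an adaptor of PRMT5 (40.2 and 16.5 CPM). In endothelial cells 1 of 49 was higher, Snd1, a Tudor-domain reader of methylarginine (14.5 and 27.7 CPM), and 1 lower, Ndufaf7, a mitochondrial arginine methyltransferase (28.1 and 15.1 CPM). Of all endothelial genes 4.83% were higher and 1.51% lower, so these counts too were near the background.

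In macrophages 11 of 46 list genes were higher and 4 lower past 1.5-fold, and of all genes 16.2% were higher and 14.4% lower. The list median was 0.34 against 0.03. Those with at least 30 UMIs that were higher were the RNA-binding proteins Ncl, Npm1, Hnrnpa1, Hnrnpu, Syncrip, Caprin1 and Alyref, with Mat2a, which makes S-adenosylmethionine, and Cnot7, a deadenylase subunit. Npm1, nucleophosmin, had 699 and 1321 CPM and Ncl, nucleolin, 298 and 663 CPM. Those that were lower were Btg1 (151 and 60.3 CPM) and Btg2 (195 and 35.6 CPM), both partners of PRMT1. In red cells 3 of 21 were higher, Hnrnpa2b1 (46.2 and 92.1 CPM), Serbp1 (80.3 and 126 CPM) and Snrpb (19.5 and 48.0 CPM), beside 19.4% of all genes higher, and 0 were lower.

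The most abundant genes of each group of the list are given by level, control before mutant. Of the PRMT5 partners, Clns1a had 59.6 and 62.6 CPM and Coprs 75.7 and 63.4 CPM in cardiomyocytes, and Wdr77, the obligate partner of PRMT5, 25.7 and 29.0 CPM. Coprs was highest in cardiomyocytes in both libraries, with 33.5 and 43.8 CPM in epicardial cells. Of the substrates, Npm1 had 563 and 696 CPM in cardiomyocytes and Snrpd1, an Sm protein, 643 and 636 CPM, and Serbp1 had 577 and 614 CPM. Of the readers, Sf3b1 had 97.1 and 103 CPM, Smn1 67.5 and 70.8 CPM and Smndc1 62.3 and 66.8 CPM. Of the methyl donor genes, Mat2b was highest in epicardial cells in both libraries (101 and 92.6 CPM), and so was Ahcyl1 (23.5 and 21.6 CPM), while Mat2a had 59.2 and 47.6 CPM there. Cnot7 had 55.9 and 46.9 CPM in epicardial cells.

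Among the genes that remove or clear methylarginine, Ddah2, which hydrolyses free asymmetric dimethylarginine, had its highest levels in endothelial cells, at 778 CPM in the control and 635 CPM in the mutant library. Its level in cardiomyocytes was 124 and 108 CPM. Ddah1, with the same activity, had 34.5 and 49.7 CPM in cardiomyocytes (144%), under the 1.5-fold limit. Jmjd6 had 43.3 and 45.3 CPM there. Of the other methyltransferases, Mettl23 had 124 and 135 CPM and Ndufaf7 56.4 and 56.2 CPM in cardiomyocytes, and each was highest in that type in both libraries. Fbxo11, listed as a gene named with the family, had 22.4 and 16.5 CPM in epicardial cells. Prmt8, a brain-enriched family member outside the 8, had 5 and 3 UMIs in all cardiomyocytes together.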

How the data were processed

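Single-cell RNA-seq of 1 control and 1 mutant heart library was analysed. The values deposited by the authors are UMI counts for each gene in each barcode. Per the file headers, Cell Ranger 3.0.2 produced them, and Seurat is listed in the submitters' processing notes. The labels give a Chromium v2 kit, but the control's 6794880 listed barcodes match the list size of a later kit, so which chemistry was used, and whether it was the same for both libraries, is uncertain. The sources used here do not state the genome build, any sorting or how many embryos were pooled. The control matrix was unfiltered and the mutant matrix filtered (7181 barcodes, each with at least 500 UMIs). Positions came from GENCODE M21 (99.6% of identifiers matched), and upstream sequences from RefSeq, GRCm38.p6.

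Cells had at least 1000 UMIs and 500 genes and at most 20% mitochondrial UMIs. A cell took a type when its markers reached 3 UMIs from 2 markers and a minimum per 10000 UMIs (100 for cardiomyocytes, 8 for epicardial, mesenchymal and endothelial cells, 32 for macrophages, 2000 for red cells), with other types' markers below 60, 8, 16, 8, 20 and 200 in the order given first. Epicardial markers were held below 4 in mesenchymal cells, and mesenchymal markers were not limited in epicardial cells. These limits were set on the marker sums of both libraries, without reading the methyltransferase genes. No doublets were removed from the values given, and leaving out the top 6% of doublet scores was an alternative.

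UMIs were summed per type and library and divided by the total (CPM). Ratios are plain, or log2((mutant CPM + 10)/(control CPM + 10)) for the 1.5-fold counts, among genes of at least 10 CPM on average. A count of 0 was read as allowing 3 UMIs. The interval method was tested on simulated Poisson counts, which have the same error that it assumes. That simulation held no variation among cells or embryos and so does not bear on it. Named genes were the 8 members, up to 3 per group of the methylation list by mean level, every list gene past 1.5-fold with at least 30 UMIs, and the 5 genes most correlated with Prmt1. The members and lists were chosen with earlier results of these data known, and the gate limits, the mitosis genes and the Myl2 and Tcf21 splits were chosen with the data at hand. Python 3.11.15, numpy 2.4.6, scipy 1.17.1, pandas 2.3.3 and scikit-learn 1.9.0 were used.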

Additional observations from a re-analysis of the deposited data

Results flagged for a closer look

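Prmt1 differed between the libraries in opposite directions in different cell types, by values without replicates. The mutant level was 84.5% of the control in epicardial cells and above the control in cardiomyocytes (119%), mesenchymal cells (110%), endothelial cells (114%) and macrophages (166%). The macrophage value rested on 47 control and 113 mutant UMIs, in a type where 30.6% of 5954 genes differed by more than 1.5-fold. Marker levels of gated epicardial cells and macrophages also shifted between the libraries. The difference between the cell types was not tested, since each genotype had 1 library.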

How the results depend on the processing

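No paired analysis was possible because each genotype had 1 library, and leaving out a replicate was not possible either. Of the main values and counts recomputed under an alternative, 86 stayed within their error or within 1.5 times and 36 did not. Prmt1 in epicardial cells stayed below the control under the alternatives of processing and gating (79.6% to 88.9%), but was 103% (80.8% to 133%) in the epicardial cells high in mitosis genes. Prmt3 in cardiomyocytes stayed below the control under those alternatives and in the Myl2 subsets (28.9% to 52.2%), and was 55.2% in cells from 5000 UMIs and 67.5% (16.03% to 218%) in shallower ones. The log2 difference of Prmt3 in cardiomyocytes, -0.73, was -0.63 with equal weight per cell, -0.57 after thinning to 2000 UMIs and -1.14 with a pseudocount of 1. Alternatives added after the data were seen gave -0.54 in Myl2-high and -1.17 in Myl2-low cells. In Myl2-low cells Prmt1 was 0.18 in place of 0.24, and Prmt5 turned to -0.19 from 0.12.

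The Prmt1 spread over cell types rested on red cells. In the control (34.3) it was 16.4 with at least 3000 UMIs and 1000 genes, 87.5 with the stricter gate, 9.67 with equal weight per cell, 8.70 after thinning, 6.24 without mitochondrial, ribosomal and haemoglobin genes, and 3.50 without red cells (added later). In the mutant library (29.5) it was 46.1 with the stricter gate, 59.6 without the top doublet scores, 11.6 with equal weight, 10.4 after thinning, 6.75 without those genes and 2.39 without red cells. The genes past 1.5-fold in epicardial cells (508) became 895 with at least 3000 UMIs, 779 with the stricter gate, 1270 after thinning, 832 without the deepest 5% of cells, 1208 with a pseudocount of 1 and 89 among genes of at least 50 CPM. In cardiomyocytes 35 became 56 after thinning, 64 with a pseudocount of 1 and 10 at 50 CPM. The 2 list genes in epicardial cells became 5 with equal weight and 4 with at least 3000 UMIs, the stricter gate, thinning or without the deepest cells, and the 0 in cardiomyocytes became 1 after thinning. The share of epicardial cells with a Prmt1 UMI was 37.0% and 35.5% when thinned to 1000 UMIs, and 69.8% unthinned in the mutant library. The causes were not tested. Depth limits every member but Prmt1 outside cardiomyocytes, where most rested on under 60 UMIs per library.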
